A study of Homo sapiens with 18 samples.

Results

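The receptor FAS and the proteins that assemble on its cytoplasmic tail form the death-inducing signalling complex, or DISC. The group described here holds 8 genes: the receptors FAS and TNFRSF1A, the adaptors FADD and TRADD, the kinase RIPK1, the initiator caspases CASP8 and CASP10, and CFLAR, which encodes the caspase-8 inhibitor c-FLIP. Members were taken by gene symbol, and 7 of the 8 had a named probe among the 17687 symbols of the array table. RIPK1 had no named probe here and was not analysed. Each of the 7 measured members was represented by 1 probe. The probes of FAS, CASP8 and CASP10 list 7 transcript accessions each and that of CFLAR lists 10, so that splice forms, such as the long and short forms of c-FLIP, are not told apart.

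The samples were 18 cultures of OCI-AML3, a human acute myeloid leukaemia cell line whose genotype is given as wildtype. Of these, 6 were treated with RG7112 at 2 µM, 6 with HDM201 at 500 nM and 6 with the solvent DMSO, all for 24 h in RPMI medium with fetal calf serum. Both compounds inhibit MDM2, a ubiquitin ligase that marks p53 for degradation, and each was given at 1 dose and 1 time. Total RNA was measured on arrays, and values are log2 signals, so that a difference of 1 is a 2-fold change. The labels call the replicates biological without saying how the cultures were separated, so the p-values reflect variation among these samples, which may be technical. All results come from a single cell line.

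FAS is bound by FAS ligand, clusters, and recruits FADD through a death domain. FADD in turn binds procaspase-8 and procaspase-10 through death effector domains, and the gathered caspases activate each other. c-FLIP, a relative of caspase-8, enters the same complex and, depending on its form and amount, blocks or modulates that activation. The TNF receptor 1, encoded by TNFRSF1A, recruits TRADD and RIPK1 first and signals mainly to NF-kB. FADD and caspase-8 join TRADD and RIPK1 in a second complex. FAS is a known transcriptional target of p53 in human cells.

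Promoter windows from RefSeq (GRCh38.p14), each reaching from 250 bases before to 50 bases after an annotated transcript start, were found for 6 of the 8 members, 15 windows in all. The p53 half-site, the decamer of which a full p53 response element holds a pair, was searched in them. It reads the same on both strands, so a match covers both. A match was present in 2 of the 15 member windows and in 6.63% of all 35116 windows of the table. The 2 windows belong to FAS and CASP8 and are shown because they hold a match. Both members rose under both compounds, as did CFLAR, whose 4 windows hold no match. A relation between matches and changes was not tested. The FAS window is chr10:88991181-88991480 and the CASP8 window chr2:201257785-201258084, both on the plus strand. Capitals mark the match. Its first base lies 122 bases before the annotated start within the FAS window and 121 bases before that within the CASP8 window. FAS and CASP8 have 3 windows each, and their other windows hold no match. For both genes another annotated start lies upstream of the window shown. A match describes letters only, and binding was not measured.
FAS: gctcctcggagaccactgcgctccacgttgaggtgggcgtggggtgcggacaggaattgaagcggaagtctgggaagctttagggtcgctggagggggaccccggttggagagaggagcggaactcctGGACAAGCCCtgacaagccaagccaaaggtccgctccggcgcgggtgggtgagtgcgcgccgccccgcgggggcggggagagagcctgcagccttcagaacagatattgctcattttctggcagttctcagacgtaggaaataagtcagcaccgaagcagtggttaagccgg
CASP8: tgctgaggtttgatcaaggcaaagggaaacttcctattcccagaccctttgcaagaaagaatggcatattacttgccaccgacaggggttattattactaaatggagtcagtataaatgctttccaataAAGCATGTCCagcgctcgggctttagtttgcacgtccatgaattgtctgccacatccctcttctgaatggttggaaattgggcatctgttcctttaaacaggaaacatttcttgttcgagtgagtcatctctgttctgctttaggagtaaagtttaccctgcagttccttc

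The median signal per array was 6.44 to 6.57, and precision is limited by the 6 arrays per group. The treatment was checked on MDM2 and on CDKN1A, which encodes the p53-induced cell cycle inhibitor p21. CDKN1A was 15.6-fold higher under RG7112 and 17.2-fold higher under HDM201 than in DMSO, and MDM2 5.95-fold and 5.98-fold higher (limma adjusted p at most 9.07e-08). Within replicates 1 to 3 and 4 to 6 the log2 differences of CDKN1A were 3.57 and 4.36 for RG7112 and 3.66 and 4.54 for HDM201. Those changes did not differ between sets beyond the threshold (adjusted p = 0.283 and 0.0728). Among 13 measured myeloid markers 10, 10 and 9 lay above the array-wide median in RG7112, HDM201 and DMSO cells, led by LYZ (lysozyme), and KIT was the lowest of the list. The mean of 8 T and NK cell markers was 4.41 to 4.58 on RG7112 arrays, 4.40 to 4.53 on HDM201 arrays and 4.39 to 4.55 on DMSO arrays. NKG7 was the one marker of that list above the median, and KLRD1 was lowest. Of 3 B cell markers 1, 1 and 2 lay above the median in RG7112, HDM201 and DMSO cells, led by CD79A. Of 5 erythroid and megakaryocyte markers 2, 1 and 2 did, led by HBA1, and of 6 fibroblast and epithelial markers 2, 1 and 1, led by COL1A2. No T and NK, B cell, erythroid or megakaryocyte marker passed under either compound (8, 3 and 5 measured), and of 6 fibroblast and epithelial markers 1 fell under HDM201. Of the myeloid markers 2 rose and 1 fell under each compound, with differences from -1.17 to 2.09 under RG7112 and from -1.21 to 2.18 under HDM201. Over all probes 7.9% passed as higher and 9.61% as lower for RG7112, and 9.16% and 9.64% for HDM201. What part such cells or markers have in the results was not tested. RG7112 replicate 3 had a narrower signal distribution than the other arrays, with an interquartile range of 3.45 against 3.70 to 3.91. Replicates 1 to 3 also stood apart from replicates 4 to 6. The labels do not call these sets a batch, and the split was taken from an earlier look at these same data. Changes within each set are given beside the pooled ones where they matter.

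RG7112 raised 3 of the 7 measured members, FAS, CASP8 and CFLAR, and HDM201 raised those and also CASP10 and TRADD, 5 of 7. A gene is said to rise or fall where its p, adjusted over all 21448 probes, was under 0.05 in limma. No member fell, and FADD and TNFRSF1A passed in neither comparison. Over all probes 17.5% passed for RG7112 against DMSO, 7.9% as higher, and 18.8% for HDM201 against DMSO, 9.16% as higher. The median member difference was 0.33 for RG7112 and 0.43 for HDM201, beside medians over all probes of 0.03 and 0.02. Both comparisons share the same DMSO arrays. In whole cultures, fewer cells of a type and less RNA per cell cannot be told apart.

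**Figure D1:**
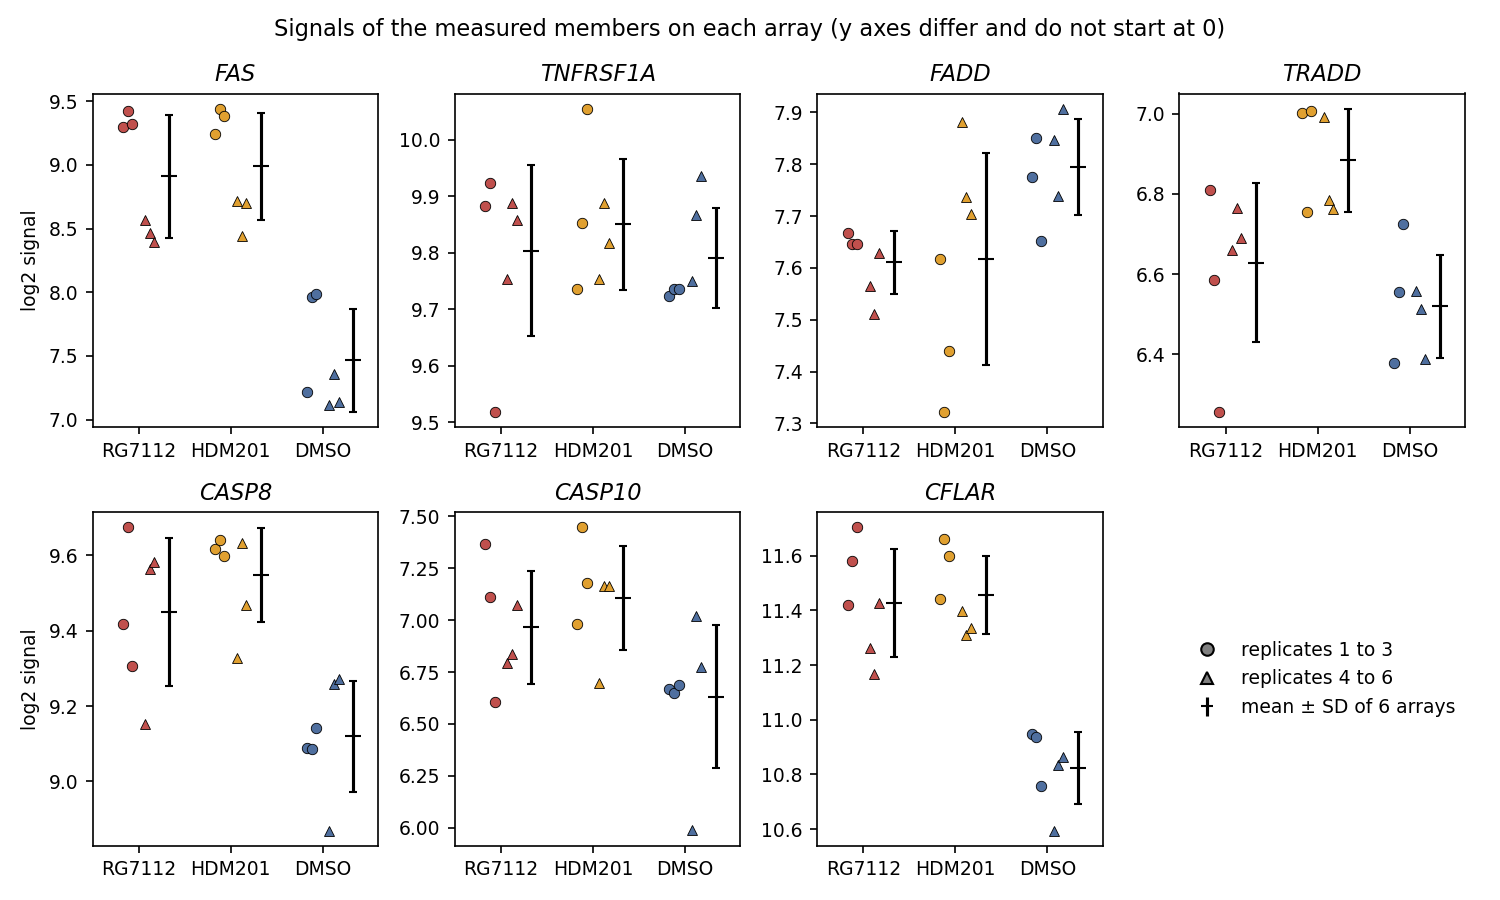
Log2 signal of the 7 measured members on each array (points) with the mean and SD of 6 arrays per group; circles are replicates 1 to 3 and triangles replicates 4 to 6, and the y axes differ. FAS and CFLAR under both compounds lie above every DMSO array, and the FAS circles lie above the FAS triangles under RG7112 and under HDM201.

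FAS was the member with the largest change. Its log2 signal was 8.40, 8.93 and 9.42 (lowest, median and highest) under RG7112, 8.44, 8.98 and 9.44 under HDM201, and 7.12, 7.29 and 7.99 in DMSO. Every treated array lay above every DMSO array. RG7112 raised FAS by 1.45 ± 0.22 on the log2 scale (SE, n = 6 per group), 2.73-fold with a 95% interval of 1.98 to 3.76 (limma adjusted p = 8.67e-05). HDM201 raised it by 1.52 ± 0.22, 2.88-fold with an interval of 2.08 to 3.97 (adjusted p = 3.31e-05).

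FAS also differed between the replicate sets. Because their split came from an earlier look at these same data, p-values between sets are not an independent test of it. Under RG7112 it was 9.30, 9.42 and 9.32 in replicates 1 to 3 and 8.57, 8.46 and 8.40 in replicates 4 to 6, and under HDM201 9.24, 9.44 and 9.39 against 8.72, 8.44 and 8.70. In DMSO it was 7.22, 7.97 and 7.99 in replicates 1 to 3 and 7.12, 7.36 and 7.14 in replicates 4 to 6, so the first replicate lay among the second set. The set difference was 0.87 ± 0.16 (SE, n = 3 per set) within RG7112 arrays (limma adjusted p = 0.00748) and 0.74 ± 0.16 within HDM201 arrays (adjusted p = 0.0156). Leaving out HDM201 replicate 2, 3 or 5 ended the HDM201 call (adjusted p = 0.0786, 0.0813 and 0.0882). Among DMSO arrays the set difference of 0.52 ± 0.16 did not pass (adjusted p = 0.312), but it passed without DMSO replicate 1 (0.77, adjusted p = 0.00643).

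FAS was the 1 member of 7 to pass between sets under RG7112, where 2.14% of probes passed, and the 1 of 7 under HDM201, where 2.76% passed. In DMSO 0 of 7 passed in limma, beside 0.303% of probes, with 1 at an unadjusted p under 0.05. CDKN1A differed between the sets in the same direction in all 3 groups, by 0.86, 0.78 and 1.65 within RG7112, HDM201 and DMSO arrays (adjusted p = 0.00174, 0.00240 and 2.0e-06). MDM2 differed by 0.38, 0.28 and 0.89, and passed within the DMSO arrays but not within RG7112 or HDM201 arrays (adjusted p = 0.0513, 0.164 and 1.52e-04 for RG7112, HDM201 and DMSO). Taken within sets, the FAS change for RG7112 minus DMSO was 1.62 in replicates 1 to 3 and 1.27 in replicates 4 to 6, and HDM201 minus DMSO 1.63 and 1.42. The difference between those changes did not pass for FAS (adjusted p = 0.851 and 0.960). Nor did it pass for any other member, at 0 of 7 beside 0.0373% of probes for RG7112 and 0 of 7 beside 0.149% for HDM201. None of the 7 reached an unadjusted p under 0.05 there.

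TNFRSF1A, the other receptor of the group, passed in neither comparison. Its signal was 9.52, 9.87 and 9.92 (lowest, median and highest) under RG7112, 9.74, 9.84 and 10.06 under HDM201, and 9.72, 9.74 and 9.94 in DMSO. The groups overlapped over most of their ranges. The difference was 0.013 ± 0.08 for RG7112 (adjusted p = 0.940) and 0.06 ± 0.08 for HDM201 (adjusted p = 0.706), and its sign turned for both within replicates 4 to 6 and for RG7112 also with array medians subtracted.

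Of the adaptors, TRADD rose under HDM201 and FADD passed in neither comparison. FADD, the bridge between the receptor and the caspases, was 7.51, 7.64 and 7.67 under RG7112, 7.32, 7.66 and 7.88 under HDM201, and 7.65, 7.81 and 7.91 in DMSO. Its arrays overlapped between groups, those of RG7112 at a single DMSO array. The differences of -0.18 ± 0.09 for RG7112 and -0.18 ± 0.09 for HDM201 did not pass (limma adjusted p = 0.151 and 0.176). For RG7112 the exact two-sided permutation test over the 12 arrays gave an unadjusted p of 0.00433.

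TRADD, the adaptor of TNF receptor 1, was 6.26, 6.67 and 6.81 under RG7112, 6.75, 6.89 and 7.01 under HDM201, and 6.38, 6.53 and 6.72 in DMSO. The 6 HDM201 arrays lay above all DMSO arrays, whereas RG7112 arrays overlapped them, with RG7112 replicate 3 the lowest of the 18. HDM201 raised TRADD by 0.36 ± 0.09, 1.29-fold (adjusted p = 0.00787), by 0.37 in replicates 1 to 3 and by 0.36 in replicates 4 to 6. The RG7112 difference of 0.11 ± 0.09 did not pass (adjusted p = 0.472). It was 0.18 without RG7112 replicate 3, again not passing, and was -0.0020 within replicates 1 to 3.

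Both initiator caspases were higher under HDM201, and CASP8 also under RG7112. CASP8 was 9.15, 9.49 and 9.67 under RG7112, 9.33, 9.61 and 9.64 under HDM201, and 8.87, 9.12 and 9.27 in DMSO. The HDM201 arrays lay above all DMSO arrays, while RG7112 replicate 4 lay inside the DMSO range. RG7112 raised CASP8 by 0.33 ± 0.10, 1.26-fold (adjusted p = 0.0194), and HDM201 by 0.43 ± 0.10, 1.35-fold (adjusted p = 0.00248). Leaving out DMSO replicate 4 ended the RG7112 call (adjusted p = 0.0562).

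CASP10, the other initiator caspase of the group, was 6.61, 6.96 and 7.37 under RG7112, 6.70, 7.17 and 7.45 under HDM201, and 5.99, 6.68 and 7.02 in DMSO. The groups overlapped, and the DMSO group was spread by its replicate 4 at 5.99. HDM201 raised CASP10 by 0.48 ± 0.15, 1.39-fold (adjusted p = 0.0338), and the RG7112 difference of 0.33 ± 0.15 did not pass (adjusted p = 0.146). Without DMSO replicate 4 the HDM201 difference was 0.35 and no longer passed (adjusted p = 0.0919). Leaving out DMSO replicate 2 or HDM201 replicate 2, 3, 5 or 6 also ended the call (adjusted p = 0.0540, 0.0936, 0.0662, 0.0587 and 0.0580).

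CFLAR had the second largest change of the 7. Its signal was 11.17, 11.42 and 11.70 under RG7112, 11.31, 11.42 and 11.66 under HDM201, and 10.59, 10.85 and 10.95 in DMSO. Every treated array lay above every DMSO array. RG7112 raised CFLAR by 0.61 ± 0.10, 1.52-fold (adjusted p = 1.14e-04), and HDM201 by 0.64 ± 0.10, 1.55-fold (adjusted p = 4.67e-05). The inhibitor of the complex thus rose under both compounds, as did the receptor and CASP8. Within replicates 1 to 3 the RG7112 and HDM201 changes were both 0.69, and within replicates 4 to 6 they were 0.52 and 0.58.

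Arrays did not overlap between RG7112 and DMSO for 2 members (FAS and CFLAR), beside 9.9% of all probes. Between HDM201 and DMSO they did not overlap for 4 (FAS, CASP8, CFLAR and TRADD), beside 13.6% of all probes. Without RG7112 replicate 3 the counts of members that rose were again 3 and 5.

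**Figure D2:**
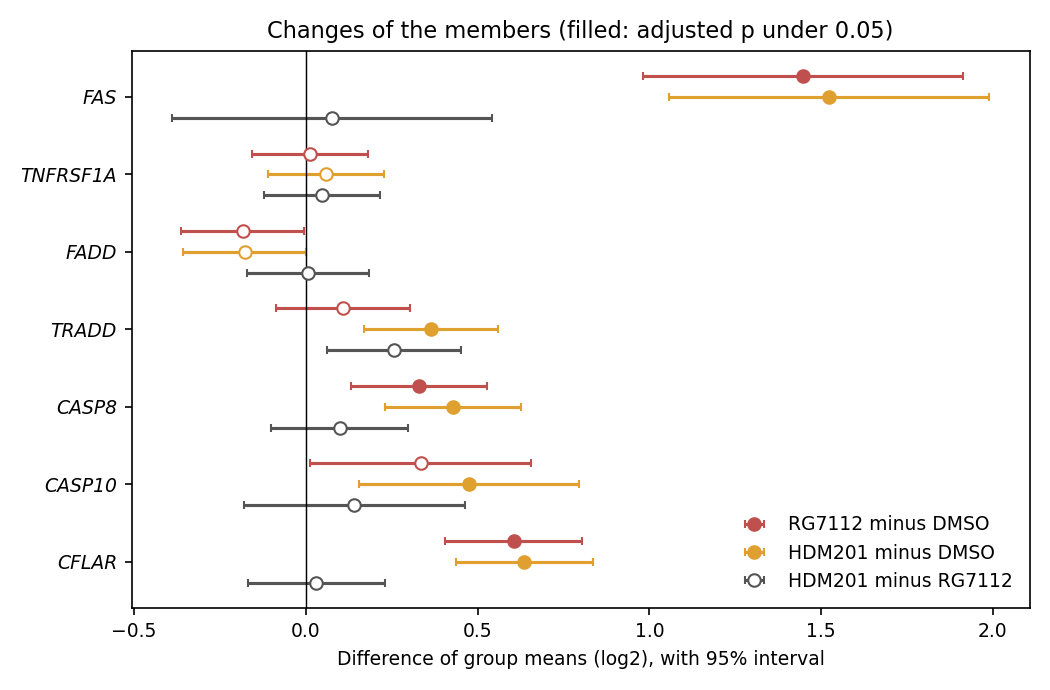
Log2 differences with 95% intervals from limma for each member, comparing RG7112 with DMSO, HDM201 with DMSO, and HDM201 with RG7112; filled points have an adjusted p under 0.05. FAS and CFLAR stand to the right in both comparisons with DMSO, and no difference between the compounds is filled.

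The compounds were compared with each other at the doses given, which differ, so the comparison is between these treatments and not at matched dose. In limma 0 of 7 members passed for HDM201 minus RG7112, beside 0% of all probes, and 1 member, TRADD, was at an unadjusted p under 0.05, as were 3.49% of all probes. TRADD was higher by 0.26 ± 0.09 under HDM201 than under RG7112, with a 95% interval of 0.06 to 0.45 (adjusted p = 0.991). The exact permutation test over the 12 arrays gave an unadjusted two-sided p of 0.0195 for it. Its arrays overlapped, as did those of the other 6 members, beside 0.0839% of probes whose arrays did not. Without RG7112 replicate 3 the TRADD difference was 0.18.

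For the other members the intervals bound the difference. That of FAS was 0.08, with an interval of -0.39 to 0.54, which is 0.764-fold to 1.46-fold. The CFLAR interval was -0.17 to 0.23, that of CASP8 -0.10 to 0.30, and that of CASP10 -0.18 to 0.46. Those of FADD and TNFRSF1A were -0.17 to 0.19 and -0.12 to 0.22.

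The wider pathway was read from 7 lists of related genes holding 73 genes, of which 62 had a named probe. Under RG7112 11 rose, 5 fell and 46 did not pass, and under HDM201 12 rose, 4 fell and 46 did not pass. Their median differences were 0.05 and 0.04. Probes that passed as higher made up 7.9% of the table for RG7112 and 9.16% for HDM201. Those that passed as lower made up 9.61% and 9.64%. The same shares stand beside the counts of each list that follow. Without RG7112 replicate 3 the counts were 14 that rose and 5 that fell under RG7112 and 15 and 8 under HDM201. Over all probes the count that passed without that array was 3530 for RG7112 (3757 with it) and 5212 for HDM201 (4032 with it), so the counts moved over the table as well as in the lists. Between the compounds 0 of 62 passed in limma and 0 of 62 had an unadjusted p under 0.05.

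**Figure D3:**
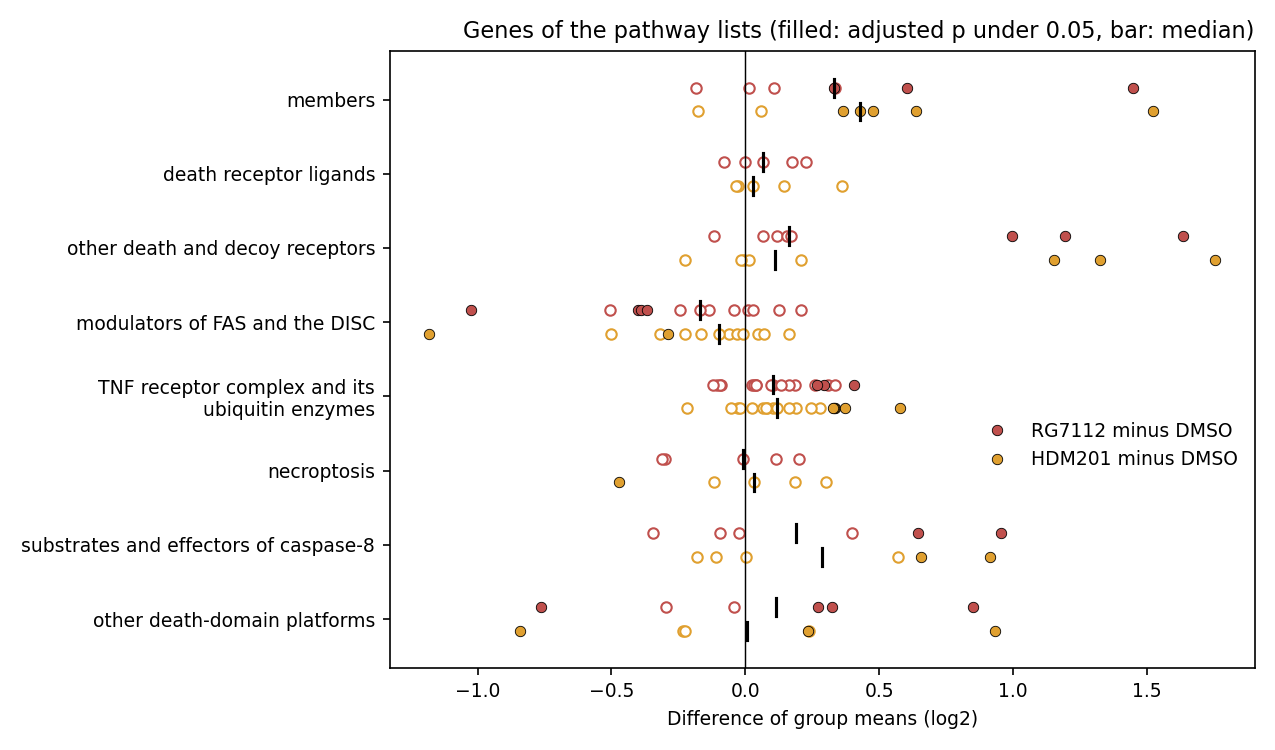
Differences from DMSO on the log2 scale for each measured gene of the 7 related lists and for the members, RG7112 above HDM201 in each row; filled points have an adjusted p under 0.05 and bars are list medians. Filled points stand at the far right for FAS among the members and for 3 other death and decoy receptors, followed by BAX and PIDD1. At the far left they stand for 1 modulator and 1 death-domain gene.

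Among 5 measured death receptor ligands none passed under either compound. TNFSF10, which encodes TRAIL, the ligand of the receptors TNFRSF10A and TNFRSF10B, differed by 0.17 under RG7112 and by 0.36 under HDM201 (adjusted p = 0.540 and 0.174). RG7112 replicate 3 was its lowest array, and without it the differences were 0.37 and 0.36 and both passed (adjusted p = 0.0264 and 0.0165). FASLG, the ligand of FAS, was named after its values were seen. It was 4.47 to 4.89 under RG7112, 4.43 to 4.89 under HDM201 and 4.51 to 4.86 in DMSO, with differences of -0.0011 and -0.03 (adjusted p = 0.996 and 0.894).

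Of 8 other death and decoy receptors 3 rose and 5 did not pass under each compound. The 3 were the TRAIL receptors TNFRSF10B, TNFRSF10A and TNFRSF10D, the last a decoy with a truncated death domain. TNFRSF10B was 10.24 to 10.79 under RG7112, 10.39 to 10.85 under HDM201 and 8.56 to 9.23 in DMSO, without overlap. It rose by 3.10-fold under RG7112 and 3.38-fold under HDM201 (adjusted p = 3.93e-08 and 6.06e-09). TNFRSF10A rose by 2.29-fold and 2.50-fold, and TNFRSF10D by 2.00-fold and 2.22-fold. The TNFRSF21 differences of -0.12 and -0.22 did not pass.

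Of 13 modulators of FAS and the DISC none rose, 4 fell under RG7112 and 2 fell under HDM201, with list medians of -0.17 and -0.10. CASP8AP2, which encodes FLASH, first described as a caspase-8 binding protein and also a factor of histone mRNA processing, was 7.16 to 8.27 under RG7112, 7.72 to 8.06 under HDM201 and 8.88 to 9.14 in DMSO. It fell by 1.02 ± 0.14 under RG7112 and by 1.18 ± 0.14 under HDM201 (adjusted p = 2.28e-05 and 2.53e-06). RG7112 replicate 3 was its lowest array, and without it the RG7112 difference was -0.86.

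DAXX, a FAS-binding protein better known as a histone chaperone, fell under both compounds, with differences of -0.40 and -0.29 (adjusted p = 0.00218 and 0.0204). The HDM201 call was lost without DMSO replicate 4 or HDM201 replicate 1 or 2 (adjusted p = 0.0593, 0.0540 and 0.0557). PEA15, a death effector domain protein that binds FADD and caspase-8, passed for RG7112 (-0.39, adjusted p = 0.0212) but not for HDM201 (-0.32, adjusted p = 0.0570), where it lay close to the threshold. It passed there in 9 of 12 other settings, and without DMSO replicate 1, RG7112 replicate 3 or 4 or HDM201 replicate 4 (adjusted p = 0.00554 to 0.0456). EZR, the membrane linker ezrin, differed by -0.37 under RG7112 (adjusted p = 0.0428) and by -0.22 under HDM201 (adjusted p = 0.245). The RG7112 call of EZR was lost without any 1 of the 6 DMSO arrays, RG7112 replicate 5 or HDM201 replicate 1 or 5 (adjusted p = 0.0501 to 0.0840). That of PEA15 was lost without DMSO replicate 4 (adjusted p = 0.0548). FAIM, an inhibitor of FAS-mediated death, differed by -0.50 and -0.50, just short of the threshold (adjusted p = 0.0563 and 0.0559). FAIM passed in 6 of 11 other settings for RG7112 and 7 of 11 for HDM201, among them the replicate set as a covariate (adjusted p = 0.0148 and 0.0140). It also passed with 5 and with 3 of the 18 arrays left out singly.

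Of 19 genes of the TNF receptor complex and its ubiquitin enzymes 3 rose under RG7112 and 5 under HDM201, and none fell. CYLD, a deubiquitinase that trims the chains on RIPK1, rose by 0.29 and 0.33 (adjusted p = 0.0130 and 0.00494). TRAF3, an adaptor of TNF receptor family members, rose by 0.40 and 0.33, and IKBKB, a kinase that releases NF-kB, by 0.27 and 0.37. TAB3, a subunit of the TAK1 kinase complex, and RBCK1, a subunit of the linear ubiquitin ligase, rose under HDM201 by 0.58 and 0.33 (adjusted p = 0.00257 and 0.0188). Their RG7112 differences of 0.33 and 0.19 did not pass (adjusted p = 0.0818 and 0.201), and that of TAB3 was 0.43 and passed without RG7112 replicate 3 (adjusted p = 0.0119). Several of these calls were lost when any 1 of several arrays was left out. The IKBKB call for RG7112 was lost without DMSO replicate 2 or 4 or RG7112 replicate 1, 2 or 5 (adjusted p = 0.0555 to 0.0698). The TRAF3 call for HDM201 was lost without DMSO replicate 1, 5 or 6 or HDM201 replicate 1, 2 or 3 (adjusted p = 0.0530 to 0.0782), and that of RBCK1 without DMSO replicate 4 or HDM201 replicate 2 or 3 (0.0524 to 0.0564). TRAF1, an adaptor that binds TRAF2, differed by 0.31 and 0.28 without passing (adjusted p = 0.0688 and 0.103).

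Of 5 necroptosis genes none passed under RG7112. Under HDM201 the mitochondrial phosphatase PGAM5 fell by 0.47 (adjusted p = 0.00372), and its RG7112 difference was -0.31 (adjusted p = 0.0582). MLKL, the protein that breaches the membrane in necroptosis, differed by -0.30 and -0.12 without passing.

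Of 6 substrates and effectors of caspase-8 2 rose under both compounds. BAX and BAK1, which form the mitochondrial pore, rose by 0.95 and 0.65 under RG7112 and by 0.91 and 0.65 under HDM201 (adjusted p at most 4.21e-04). CASP6, an executioner caspase, differed by 0.40 and 0.57 without passing (adjusted p = 0.230 and 0.0777).

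Among 6 genes of other death-domain platforms, parts of the PIDDosome moved in both directions. PIDD1, its death-domain scaffold, rose by 1.80-fold under RG7112 and 1.91-fold under HDM201 (adjusted p = 1.97e-04 and 5.15e-05). CASP2, the caspase it activates, fell by 0.76 and 0.84 (adjusted p = 5.80e-05 and 1.22e-05). The linking adaptor CRADD rose by 0.32 under RG7112 (adjusted p = 0.0276) and differed by 0.24 under HDM201 (adjusted p = 0.108). The CRADD call was lost without DMSO replicate 1, 3, 5 or 6 or RG7112 replicate 2 (adjusted p = 0.0516 to 0.0667). DAPK1, a death-domain kinase, rose by 0.27 and 0.23 (adjusted p = 0.0194 and 0.0383). Leaving out DMSO replicate 2 ended its RG7112 call (adjusted p = 0.0534), and its HDM201 call was lost without DMSO replicate 2, 3, 4 or 6 or HDM201 replicate 1, 2, 3 or 6 (adjusted p = 0.0582 to 0.0977). MADD, a death-domain protein that binds TNF receptor 1, differed by -0.30 and -0.23 without passing (adjusted p = 0.0855 and 0.187).

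CFLAR, CASP10 and CASP8 lie side by side on chromosome 2 in the RefSeq gene table, with 0 protein-coding genes between them. The 4 protein-coding genes on either side of this cluster were all measured, 8 in total. None of the 8 rose, beside 7.9% of all probes that passed as higher for RG7112 and 9.16% for HDM201. Under each compound 1 of the 8 fell, beside 9.61% and 9.64% of all probes. With 8 genes, these counts do not set the neighbours apart from the table. NIF3L1 fell by 0.78 under RG7112 and by 0.88 under HDM201 (adjusted p = 2.66e-05 and 4.00e-06). The other 7 did not pass, and the 8 neighbours ranged from -0.78 to 0.22 under RG7112 and from -0.88 to 0.19 under HDM201.

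**Figure D4:**
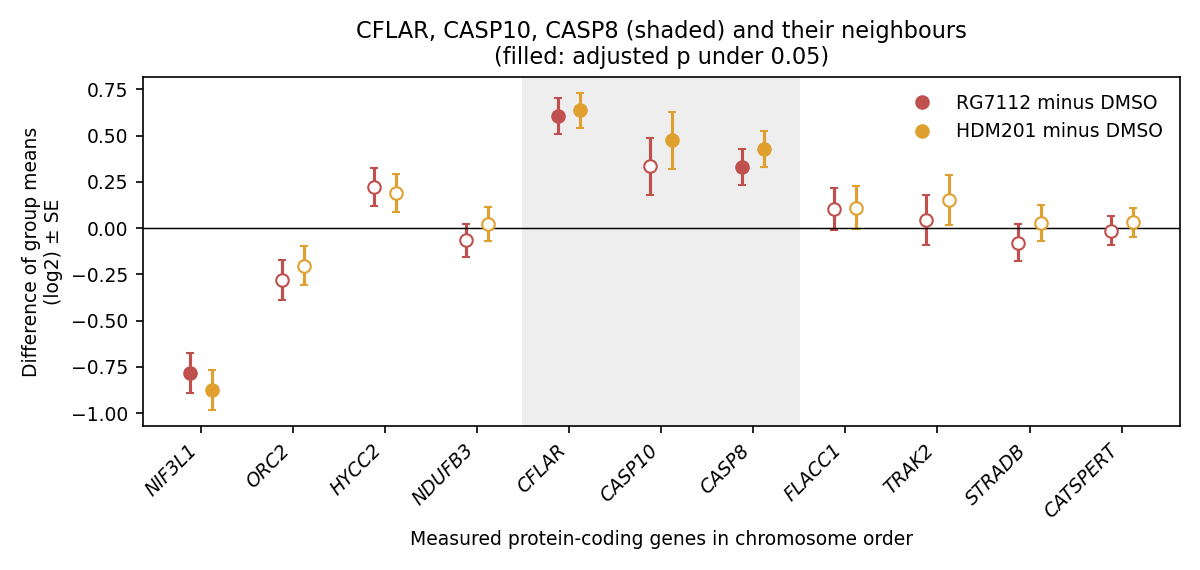
Differences from DMSO on the log2 scale with SE for CFLAR, CASP10 and CASP8 (shaded) and the 4 measured protein-coding genes on each side, in chromosome order and not to scale; filled points have an adjusted p under 0.05. The 3 members have the highest differences in the row, though CASP10 did not pass under RG7112, and NIF3L1 is the neighbour that fell.

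The genes whose patterns were nearest to each member that rose were found by the root mean square difference of values over the 18 arrays, each gene's values taken relative to its own DMSO mean. For FAS, whose own root mean square was 1.28, the 5 nearest were RRM2B (0.185), BLOC1S2 (0.202), RUSC2 (0.228), TRIAP1 (0.232) and COL5A1 (0.237). RRM2B encodes the p53-inducible small subunit of ribonucleotide reductase, and TRIAP1 a protein named for its regulation by p53. For CFLAR (0.528) they were ICOSLG, BTBD9, SLC35E3, STX16 and MGRN1, at 0.108 to 0.116. For CASP8 (0.344) AKAP10 was nearest at 0.103, followed by IKBKB at 0.117. The nearest to CASP10 (0.428) was MBD5 at 0.157, and the nearest to TRADD (0.261) was TGOLN2 at 0.106. No other member stood among the 5 nearest genes of any member. The measure depends on the size of a change, and 5 are few among 17687 symbols. This absence therefore does not show whether the members move together.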

How the data were processed

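The values the authors deposited are log2 signals from RMA in oligo, per the submitters' processing notes. RMA subtracts background, equalises the distributions of the arrays by quantiles and combines probes into probe sets. Neither versions nor a genome build were given in the sources used here. All 18 columns were used, with 0 left over. A platform annotation gave 17709 of 21448 probes exactly 1 symbol, 0 several and 3739 none, and for 20 symbols with more than 1 probe the highest mean was used. No 2 arrays held identical values.

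Group means were fitted to all 18 arrays at every probe (limma 3.58.1, R 4.3.3), with Benjamini-Hochberg adjustment over the 21448 probes. Replicate sets, a split taken from an earlier look at these data, were fitted as 6 means. The set tests within RG7112 and within HDM201, and all alternatives for the related genes, were added after values were seen. Exact permutation tests were two-sided over 924 arrangements, with 0.00216 the smallest possible p. The fit was tested on simulated data. Alternatives were a robust prior that follows the signal, array weights, dropping dim probes, other scalings, only the arrays compared, single replicate sets, the set as a covariate, the replicate block and leaving out each array. The members and lists were chosen with earlier results of these data known. From each related list the text names up to 6 genes that passed, largest first, and the 1 with the largest difference that did not, plus CDKN1A, MDM2 and the 5 genes nearest in pattern to each member that rose.

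The labels give no pairing beyond replicate numbers. Residuals of same-numbered arrays correlated at 0.0168 to 0.365 for RG7112 with DMSO, 0.0826 to 0.299 for HDM201 with DMSO (over 0.1 in 5 of 6 pairs each) and 0.117 to 0.440 for HDM201 with RG7112 (6 of 6). With the means of replicates 1 to 3 and 4 to 6 removed, the last range was -0.046 to 0.332, with 4 of 6 pairs over 0.1. The criterion for pairing, every pair over 0.1, was thus met for the last comparison with the set difference left in and not with it removed.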

Additional observations from a re-analysis of the deposited data

Results flagged for a closer look

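The CASP10 signal of DMSO replicate 4 was 5.99, far below the other 5 DMSO arrays, which lay between 6.65 and 7.02. It was the 1 outlying array among the 21 groups of 6 arrays checked for the 7 members, and chance marks about 1 in 20 such groups. The same array was also the lowest DMSO array for FAS (7.12, others 7.14 to 7.99), for CASP8 (8.87, others 9.09 to 9.27) and for CFLAR (10.59, others 10.76 to 10.95). It was not the lowest for FADD, and its median over all probes was 6.46, with the other DMSO arrays at 6.44 to 6.51.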

How the results depend on the processing

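FAS and CFLAR passed against DMSO under every alternative run and with each array left out. Members that passed numbered 2 to 3 for RG7112 and 4 to 5 for HDM201 with each array left out, and 0 in each case between the compounds. Within replicates 1 to 3 and within 4 to 6 alone, which hold fewer arrays, HDM201 gave 3 and 3, and the exact permutation test gave 1 between the compounds. CASP8 under RG7112 missed within either set (adjusted p = 0.104 and 0.257), as did CASP10 under HDM201 (0.105 and 0.303). CASP8 under HDM201 missed within replicates 4 to 6 (0.183) and TRADD within 1 to 3 (0.205). Members differing between sets numbered 0 to 1 in HDM201 and 0 to 1 in DMSO with each array left out, and 1 in DMSO with array weights. With the replicate number as a block 3, 5 and 0 members passed, with no member call changed, and over all probes 4780, 4866 and 0. Related genes that passed numbered 19, 19 and 0 with the block, where FAIM, PGAM5 and MADD under RG7112 and FAIM, PEA15 and CASP6 under HDM201 also passed. They numbered 25 under HDM201 with array weights, and 9 and 10 under RG7112 within replicates 1 to 3 and 4 to 6. With each array left out they ranged from 13 to 19 and from 12 to 23. Of the 16 named related calls in each comparison, 8 held under all alternatives and 8 were lost under 1 or more. Of the 10 named related genes that did not pass in each, 6 under RG7112 and 9 under HDM201 passed under 1 or more. Within single sets the count over all probes was 1973 and 2148 for RG7112 (3757 in all arrays) and 2504 and 2595 for HDM201 (4032). With array weights 430, 197 and 652 probes passed for the set differences of the RG7112 change, of the HDM201 change and of DMSO, against 8, 32 and 65 without; the cause was not tested. Small differences changed sign. For TNFRSF1A these were -0.040 (array medians subtracted) and -0.018 (replicates 4 to 6) under RG7112, -0.031 under HDM201 and -0.013 between compounds (both replicates 4 to 6). For TRADD under RG7112 it was -0.0020 (replicates 1 to 3). Between compounds FADD gave -0.0080 and CFLAR -0.011 on repeated quantile normalization, and -0.19 and -0.0019 in replicates 1 to 3. FASLG gave 0.090 and 0.11 in replicates 1 to 3, and with each array left out ranged from -0.046 to 0.051 under RG7112 and from -0.073 to 0.026 under HDM201. With each array left out TNFRSF1A ranged from -0.012 to 0.070 under RG7112 and from -0.011 to 0.071 between compounds, where FAS ranged from -0.026 to 0.19, FADD from -0.046 to 0.066 and CFLAR from -0.022 to 0.086. Averaging the probes of a symbol could not differ, since each member has 1 probe.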

Other observations

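The levels of FAS, FADD, CASP8 and CASP10 relative to the inhibitor were taken per array, as the change of each from its own DMSO mean minus that of CFLAR. These are descriptions of the same signals, with no test. FAS minus CFLAR was 0.84 ± 0.36 (SD, n = 6, range 0.33 to 1.24) under RG7112 and 0.89 ± 0.29 (0.49 to 1.16) under HDM201. Both ranges overlapped the DMSO range of -0.37 to 0.59, where replicates 2 and 3 were at 0.39 and 0.59. FADD minus CFLAR was -0.79 ± 0.15 (-1.03 to -0.63) under RG7112 and -0.81 ± 0.34 (-1.31 to -0.49) under HDM201, against -0.15 to 0.28 on DMSO arrays, without overlap. CASP8 minus CFLAR was -0.28 ± 0.27 under RG7112 and -0.21 ± 0.15 under HDM201, and its ranges of -0.70 to 0.099 and -0.37 to 0.027 overlapped the DMSO range of -0.16 to 0.12. CASP10 minus CFLAR was -0.27 ± 0.35 (-0.91 to 0.14) under RG7112 and -0.16 ± 0.22 (-0.51 to 0.048) under HDM201, and both ranges overlapped the DMSO range of -0.42 to 0.37. So FAS changed by more than CFLAR on all 12 treated arrays, though not beyond the DMSO range on each. FADD changed by less on all 12, and CASP8 and CASP10 by less on average. FADD itself passed in neither comparison, whereas CFLAR rose in both. As every treated array lay above every DMSO array for CFLAR, a gene with flat signals would separate from it in the same way. The share of all probes that do so was not computed, so the separation is not a result about FADD.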
